A study of Mus musculus with 15 samples.

Results

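The genes described here are 43 listed genes of DNA replication and mitosis, matched by Ensembl identifier and mouse symbol among the 54232 genes measured in bulk RNA of mouse brain tumours. Of the 43, 18 act in or before S phase, 23 act in mitosis, and 2 (Foxm1 and Mybl2) encode transcription factors that drive the mitotic genes. All 43 were found and all 43 passed the filter on low values (a mean normalized read count of at least 10), so every one of them entered every comparison.

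A cell copies its DNA once per division. Licensing factors load the MCM helicase onto replication origins, cyclin E with its kinase starts firing of those origins, and PCNA clamps the polymerases onto the template while ribonucleotide reductase and thymidylate synthase supply the nucleotides. Later, cyclins A and B with Cdk1, the Aurora and Polo kinases, kinesin motors and the spindle checkpoint carry the chromosomes through mitosis, and the anaphase-promoting complex ends it by marking cyclins for destruction. E2F factors are known to drive the S phase genes, and the MuvB complex with B-Myb (from Mybl2) and FoxM1 the mitotic ones, through a promoter element called the CHR and nearby CCAAT boxes.

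The tumours grew in the frontal cortex of C57BL/6 mice and were taken when the animals reached a functional end point; their age and sex are not known here. All mice carried the Nestin Tv-a transgene, which puts the receptor for RCAS virus on Nestin-expressing cells, together with p53 fl/fl, and all were injected with virus-producing DF-1 chicken cells carrying RCAS-Cre and RCAS-PDGFA. The 4 groups differ by the host alleles and by a further construct. ATRXfl_G34R (n = 4 libraries) had ATRX fl/fl hosts and RCAS-H3.3G34R-GFP, the histone H3.3 variant of hemispheric glioma. ATRXfl_WT (n = 4) had the same hosts and RCAS-H3.3WT-GFP, p53_G34R (n = 3) had hosts with intact Atrx and the mutant histone, and p53_WT (n = 4) had intact Atrx and the wild-type histone. Each library is one of the 15 samples, numbered within its group. No label states that each library came from a mouse of its own, so the p-values measure only the spread between these samples, which may be partly technical. The titles of 3 pairs of libraries share their first code: ATRXfl_G34R 1 and 4, p53_G34R 2 and 3, and p53_WT 3 and 4. What that code stands for is not known here, so these may not be separate animals or tumours.

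Each library held between 22807315 and 35679129 reads in genes. Atrx itself, the targeted gene, had a normalized read count of 1346 to 3124 in the 8 floxed tumours and 5143 to 8540 in the 7 intact ones, so that these did not overlap. One library stood apart in its makeup: in p53_WT 3 the summed normalized count of 12 neuron markers was 260903, against 1065 to 21099 in the other libraries, that of 8 astrocyte markers was 257068, and that of 8 oligodendrocyte progenitor markers was 26497, the lowest. ATRXfl_G34R 3 was second for neuron markers (21099) and had 102841 for 10 mature oligodendrocyte markers, below p53_WT 3 (113730). In ATRXfl_WT 1, the sum of 7 endothelial markers was 72616, against 6805 to 18026 elsewhere. There 6 erythroid markers summed to 565610, but p53_WT 1 (418689) and ATRXfl_G34R 2 (323265) were high too. In every group each marker of all 8 lists had at least 1 read. The part of normal brain, vessel and blood RNA in the results was not tested.

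Promoter sequences are shown because E2F-type and CHR-type letters were found in unequal shares of the S phase and mitotic promoters. Whether these letters have a part in how the members varied together across tumours was not tested. RefSeq promoters (GRCm38.p6, from 250 bases before to 50 bases after the start site) matched 33 of the 43 genes: 14 of S phase, 18 of mitosis, and Mybl2. The promoters printed were picked, among genes of high mean level, for holding the letters of their set, so they do not stand for the others. Rrm1 and Mcm2, with higher means than Mcm5 and Mcm7, held no E2F-type letters. Mcm3 and Cenpf held the letters of their set in the window searched and are not printed. Their means were higher than those of Mcm7 and Kif11, which are printed. Below are the 250 bases upstream of the start site of 3 MCM helicase genes, printed 5′ to 3′ on the gene's strand, with E2F-type letters in capitals: TTTCCCGC, TTTGGCGC, TTTCGCGC or TTTGCCGC on either strand. These are Mcm6 (chr1:128359706-128359955, minus strand), Mcm5 (chr8:75109259-75109508, plus strand) and Mcm7 (chr5:138171884-138172133, minus strand).
Mcm6: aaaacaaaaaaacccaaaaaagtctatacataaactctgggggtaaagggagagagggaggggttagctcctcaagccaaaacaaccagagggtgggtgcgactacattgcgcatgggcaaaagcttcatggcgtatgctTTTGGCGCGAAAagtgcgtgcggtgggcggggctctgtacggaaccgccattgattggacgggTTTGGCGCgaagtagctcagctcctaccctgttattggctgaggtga
Mcm5: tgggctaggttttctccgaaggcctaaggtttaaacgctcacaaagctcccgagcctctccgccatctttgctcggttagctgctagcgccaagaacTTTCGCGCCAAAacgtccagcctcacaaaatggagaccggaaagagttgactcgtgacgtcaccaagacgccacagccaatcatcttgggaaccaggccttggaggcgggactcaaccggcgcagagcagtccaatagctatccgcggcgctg
Mcm7: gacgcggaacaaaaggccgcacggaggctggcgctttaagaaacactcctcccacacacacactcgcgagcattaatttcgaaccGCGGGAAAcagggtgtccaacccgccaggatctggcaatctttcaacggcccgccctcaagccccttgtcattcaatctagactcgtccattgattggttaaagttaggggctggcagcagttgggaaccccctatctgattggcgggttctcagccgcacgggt
In Mcm6 a run of overlapping matches on both strands began 110 bases upstream and a further match began 47 bases upstream. The matches of Mcm5 began 153 and 149 bases upstream and overlapped, and the match of Mcm7 began 165 bases upstream.

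For 3 mitotic genes the capitals mark CHR-type letters (TTTGAA or TTCGAA, either strand) and CCAAT, which reads ATTGG on the other strand. They are Mki67 (chr7:135716380-135716629, minus strand), Top2a (chr11:99024190-99024439, minus strand) and Kif11 (chr19:37376132-37376381, plus strand).
Mki67: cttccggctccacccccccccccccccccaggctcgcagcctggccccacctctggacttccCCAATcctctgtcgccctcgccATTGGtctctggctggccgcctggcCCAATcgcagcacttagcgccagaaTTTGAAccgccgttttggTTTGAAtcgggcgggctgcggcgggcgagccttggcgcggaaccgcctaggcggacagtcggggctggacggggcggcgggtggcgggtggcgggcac
Top2a: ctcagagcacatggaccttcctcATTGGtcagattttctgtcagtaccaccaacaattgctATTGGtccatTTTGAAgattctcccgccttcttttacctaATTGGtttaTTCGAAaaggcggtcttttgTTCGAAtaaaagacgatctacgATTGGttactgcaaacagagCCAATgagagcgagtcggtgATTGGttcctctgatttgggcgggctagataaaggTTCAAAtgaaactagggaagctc
Kif11: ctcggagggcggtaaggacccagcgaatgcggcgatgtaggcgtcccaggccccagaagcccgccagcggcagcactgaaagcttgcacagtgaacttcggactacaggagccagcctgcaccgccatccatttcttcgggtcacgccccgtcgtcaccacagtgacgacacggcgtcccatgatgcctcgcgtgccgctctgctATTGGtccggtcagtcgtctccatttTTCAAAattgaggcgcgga
Top2a, the gene for topoisomerase II alpha, held 6 CCAAT matches and 4 CHR-type matches in this window. Mki67 held 3 and 2, and Kif11 held 1 of each. The printed bases of Mcm6, Mcm5 and Mcm7 also held 2 CCAAT matches each, and those of Mcm7 a CHR-type match. These were left in small letters there.

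Over the 300-base window, E2F-type letters were present in 6 of 14 S phase promoters (42.9%) and 1 of 18 mitotic promoters (5.56%), against 2.6% of all 27025 promoters in the table. CHR-type letters were present in 3 of 14 (21.4%) and 14 of 18 (77.8%), against 21.7%. CCAAT was present in 10 of 14 (71.4%) and 16 of 18 (88.9%), against 41.1%. A CHR-type match and CCAAT stood together in 3 S phase and 14 mitotic promoters, against 9.65% of all promoters. The shares differed between the classes but the elements overlapped: E2F-type letters were missing from 8 of 14 S phase promoters and present in that of Cdk1, and Tyms, Ccne1, Nusap1, Birc5 and Mybl2 held none of the searched letters.

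Across the 15 tumours the 43 genes varied together, and much of the spread lay between tumours of the same group. The highest value of 37 of the 43 genes was in p53_WT 2, that of 5 (Mcm5, Gins1, Tyms, Cdc25c and Birc5) in ATRXfl_G34R 4, and that of Ccne1 in p53_G34R 2. The lowest value was in ATRXfl_WT 1 for 19 genes, in p53_WT 3 for 14 and in ATRXfl_WT 2 for 10. The highest library exceeded the lowest by a median of 8.26-fold over the 43 genes, from 2.93-fold for Ccne1 to 24.5-fold for Cdc6. The 43 genes together took 97.8 of every 100000 reads in p53_WT 3 and 109 in ATRXfl_WT 1, against 786 in p53_WT 2. In bulk RNA, fewer dividing cells and less of these transcripts per cell cannot be told apart.

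**Figure D1:**
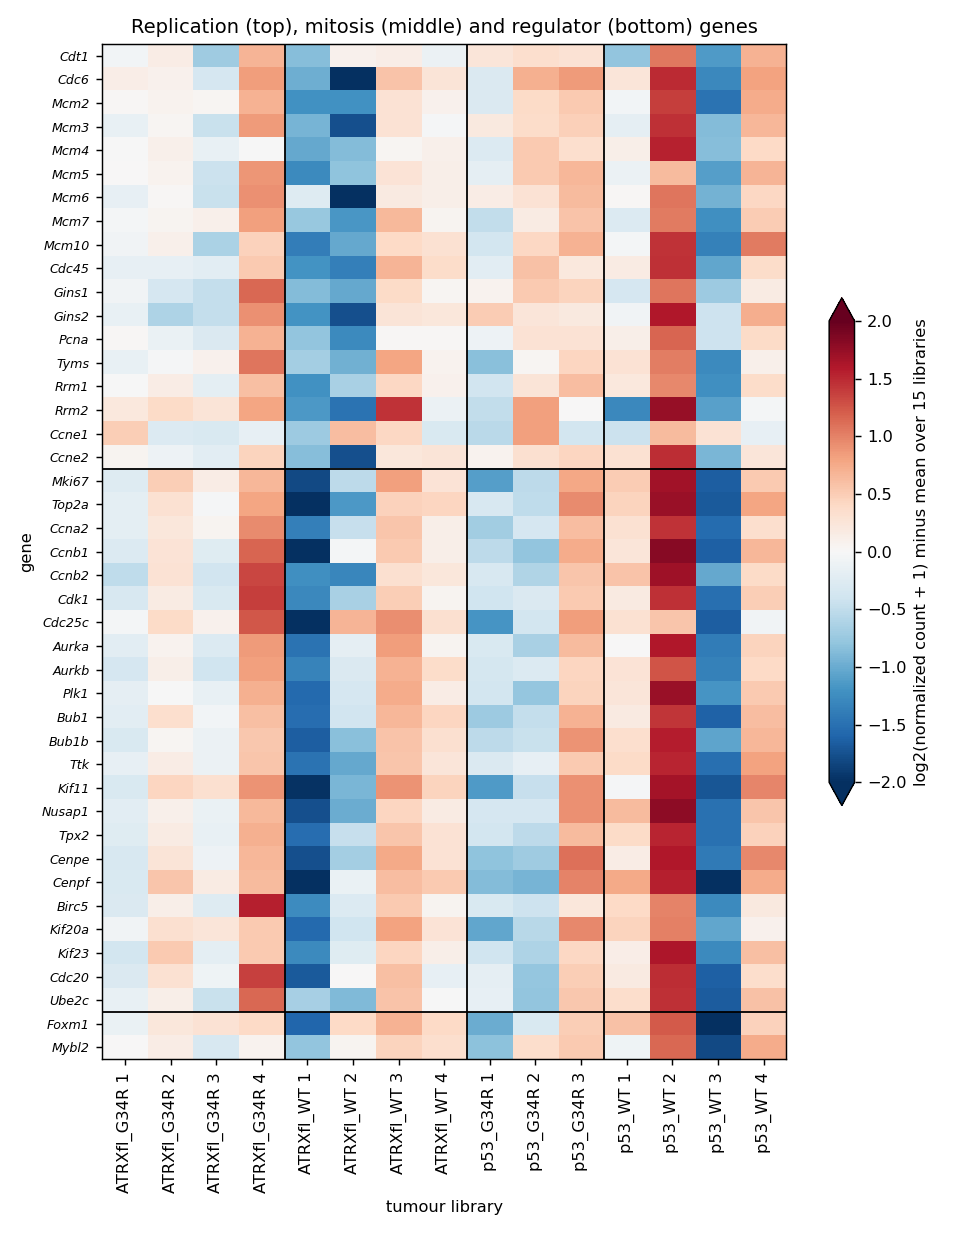
Level of each gene (rows) in each tumour library (columns), as log2(normalized read count + 1) minus that gene's mean over the 15 libraries, with colours limited to the range from -2 to 2. Black lines separate the S phase genes, the mitotic genes and the transcription factors, and the 4 groups; the reddest column is p53_WT 2 and the bluest are ATRXfl_WT 1 and p53_WT 3.

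Of the 2 licensing genes, Cdc6 varied most and Cdt1 was among the least variable of the 43. Cdc6 (ENSMUSG00000017499, chr11:98907801-98923940) loads the helicase onto origins. Its normalized read count was 389, 378, 281 and 635 in ATRXfl_G34R libraries 1 to 4 and 180, 40.9, 527 and 423 in ATRXfl_WT libraries 1 to 4. It was 291, 581 and 645 in p53_G34R libraries 1 to 3 and 422, 1004, 144 and 625 in p53_WT libraries 1 to 4. ATRXfl_WT 2 was far below every other tumour for this gene, resting on 35 reads, and the lowest and highest tumours both carried the wild-type histone. Cdt1, its partner in licensing, had an SD of 0.63 on the log2 scale against 1.12 for Cdc6, with medians of 920, 882, 1085 and 978 in ATRXfl_G34R, ATRXfl_WT, p53_G34R and p53_WT, and in ATRXfl_WT 2 it stood close to its own mean (a centred log2 value of 0.08, against -3.09 for Cdc6).

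The helicase genes varied with the S phase set, but their lowest values fell in different libraries. That of Mcm2 was in p53_WT 3, that of Mcm3 in ATRXfl_WT 2 and that of Mcm4 in ATRXfl_WT 1. Mcm6 (chr1:128331590-128359664) encodes 1 subunit of the ring that unwinds DNA. It had 2865, 3269, 2353 and 6088 in ATRXfl_G34R and 2692, 801, 3630 and 3470 in ATRXfl_WT. It had 3550, 3941 and 5008 in p53_G34R and 3269, 6741, 1663 and 4300 in p53_WT. The p53_G34R tumours were the closest together, all groups overlapped, and ATRXfl_WT 2 was again the lowest tumour. Gins2, a subunit of the GINS complex that activates the helicase, had 238 to 685 in the ATRXfl_G34R tumours and 107 to 437 in ATRXfl_WT. It had 416 to 515 in p53_G34R and 273 to 1106 in p53_WT. In the GENCODE vM21 annotation 67.3% of the exon bases of Gins2 also belong to Gse1 on the opposite strand, and no source used here says whether reads were counted by strand, so its counts are uncertain.

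Pcna (chr2:132249162-132253314), the sliding clamp, had 1609, 1436, 1286 and 2567 in ATRXfl_G34R and 910, 648, 1600 and 1601 in ATRXfl_WT. It had 1469, 1931 and 1917 in p53_G34R and 1713, 3539, 1186 and 2059 in p53_WT. The 2 lowest tumours for Pcna were both ATRXfl_WT, and the other 2 tumours of that group lay within the ranges of all the others. Rrm1, the large subunit of ribonucleotide reductase, ranged from 3738 to 6511, 1845 to 5750, 3281 to 6602 and 1836 to 8391 in the same order of groups.

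Ccne1 (chr7:38097984-38107534), which encodes cyclin E1, did not follow the others. It had 528, 309, 304 and 334 in ATRXfl_G34R and 227, 576, 497 and 304 in ATRXfl_WT. It had 258, 663 and 288 in p53_G34R and 277, 584, 456 and 332 in p53_WT. In ATRXfl_WT 2, where 9 of the 18 S phase genes had their lowest value, Ccne1 was above its own mean, and in p53_WT 3 it was the only S phase gene above its mean. Ccne2, which encodes the related cyclin E2, followed the replication genes, with 84.1 in ATRXfl_WT 2 and 807 in p53_WT 2. In the annotation 17.4% of the exon bases of Ccne2 overlap Ints8 on the opposite strand.

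**Figure D2:**
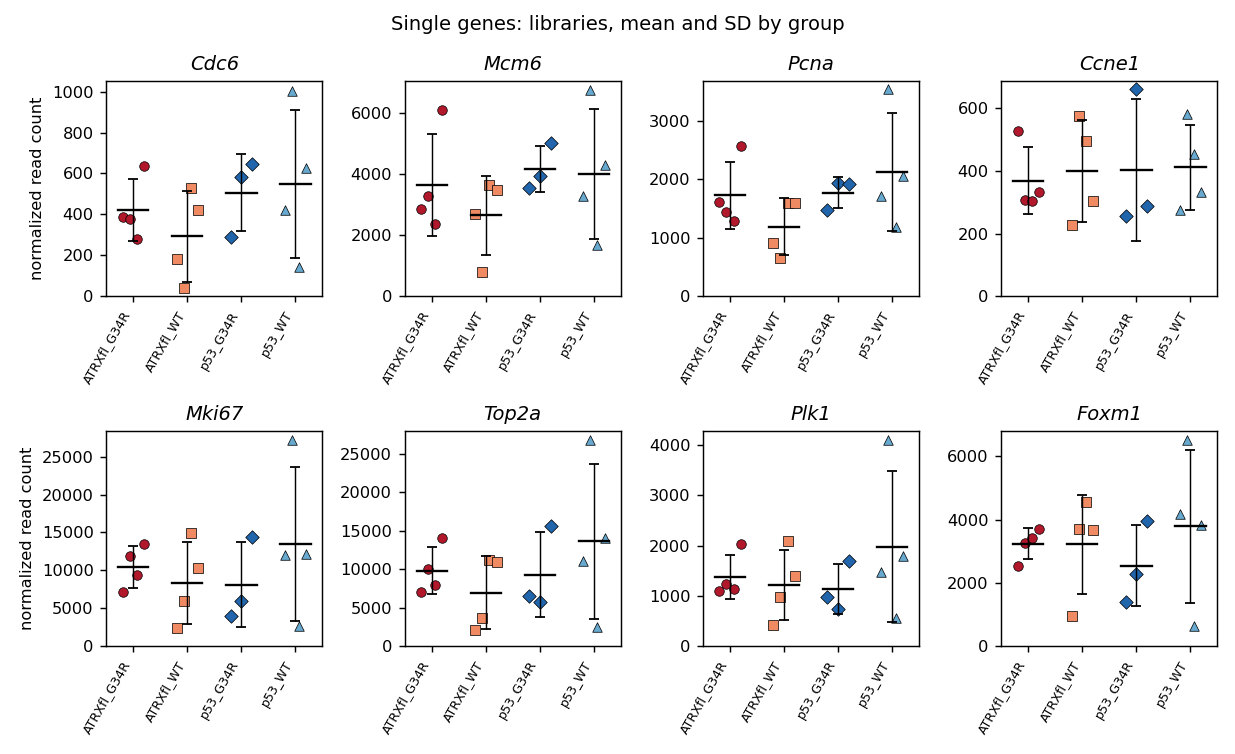
Normalized read count of 8 genes in each tumour (points) with the group mean (thick bar) and SD (error bars); n = 4, 4, 3 and 4 for ATRXfl_G34R, ATRXfl_WT, p53_G34R and p53_WT. Points of all groups overlap for each gene shown, and single tumours such as p53_WT 2 set the upper end.

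Among the mitotic genes, Mki67 and Top2a were the most abundant per unit length. Median RPKM over the 15 tumours, computed with the exon lengths of GENCODE vM21, was 40.4 for Top2a, 36.8 for Mki67, 34.1 for Cdc20 and 27.9 for Ube2c, against 26.9 for Mcm6, the highest S phase gene, and 2.93 for Cdc6, the lowest of all 43. In the annotation 22.8% of the exon bases of Ube2c overlap Tnnc2, whose median count was 0.

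Mki67 (chr7:135689784-135716361), whose product coats mitotic chromosomes and marks cycling cells in pathology, had 7074, 11871, 9326 and 13456 normalized reads in ATRXfl_G34R. It had 2410, 5886, 14890 and 10234 in ATRXfl_WT, 3951, 5888 and 14451 in p53_G34R, and 11997, 27187, 2685 and 12119 in p53_WT. Within p53_WT alone the tumours ran from 2685 to 27187, a wider gap than that between any group means (10432 ± 2811, 8355 ± 5406, 8097 ± 5587 and 13497 ± 10140, SD, n = 4, 4, 3 and 4). Top2a (chr11:98992943-99024189) had 7085, 10028, 7990 and 13999 in ATRXfl_G34R and 2051, 3673, 11176 and 10942 in ATRXfl_WT. It had 6501, 5746 and 15618 in p53_G34R and 11130, 26798, 2525 and 14003 in p53_WT. The ATRXfl_G34R tumours were the tightest group for both genes, with an SD of 2811 for Mki67 and 3073 for Top2a, and for Mki67 each of the other groups held tumours below and above them.

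The genes read after these were Cdk1 and its partners, in no order of abundance. Cdk1 (chr10:69335146-69352938), the kinase that starts mitosis, had 1772, 2454, 1791 and 5716 in ATRXfl_G34R and 902, 1400, 3092 and 2293 in ATRXfl_WT. It had 1679, 1806 and 3171 in p53_G34R and 2482, 6043, 774 and 3111 in p53_WT. ATRXfl_G34R 4 and p53_WT 2 stood above the remaining tumours for Cdk1, by nearly the same amount. Ccnb2, a cyclin B, ranged from 670 to 2422, 388 to 1198, 634 to 1405 and 470 to 3096 in the 4 groups; a pseudogene, Ccnb2-ps, was listed at 17.5% of its level, so reads may be split between them. Cdc25c, the phosphatase that activates Cdk1, departed most from the mitotic set: in ATRXfl_WT 2 it was 0.68 above its mean on the log2 scale while 21 of the 23 mitotic genes lay below theirs, and in the annotation 12.7% of its exon bases overlap Gm3550.

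Plk1 (chr7:122159439-122169873), the Polo kinase, had 1096, 1240, 1127 and 2034 in ATRXfl_G34R and 424, 981, 2089 and 1386 in ATRXfl_WT. It had 965, 728 and 1688 in p53_G34R and 1475, 4103, 551 and 1782 in p53_WT. In ATRXfl_G34R, p53_G34R and p53_WT a single tumour stood above the rest of its group, and the groups overlapped. Kif11 (chr19:37376403-37421859), the kinesin that pushes spindle poles apart, had 1753, 2902, 2689 and 4028 in ATRXfl_G34R and 548, 1148, 3998 and 2927 in ATRXfl_WT. It had 980, 1560 and 4062 in p53_G34R and 2110, 6824, 656 and 4225 in p53_WT. Its SD of 1.07 on the log2 scale was exceeded among the 43 genes by those of Cdc6 (1.12) and Cenpf (1.10) alone.

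Bub1b, a spindle checkpoint gene, had medians of 1504, 1400, 1139 and 2196 in ATRXfl_G34R, ATRXfl_WT, p53_G34R and p53_WT. Nusap1 and Tpx2, which build spindle microtubules, had medians of 1487, 1212, 1181 and 2258, and of 3098, 2981, 2363 and 4082. All 3 of these genes had their highest value in p53_WT 2 and their lowest in ATRXfl_WT 1. Cenpf, a kinetochore protein, had medians of 3689, 3347, 1558 and 4810, and Kif23, a cytokinesis kinesin, 1094, 913, 714 and 1238. Cdc20 and Ube2c, an activator and a ubiquitin-conjugating enzyme of the anaphase-promoting complex, had medians of 1933, 1680, 1570 and 2138, and of 2014, 1637, 1800 and 2802. For each of these 7 genes p53_WT had the highest median, while the lowest and highest libraries of p53_WT alone enclosed every tumour of p53_G34R.

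Foxm1 (chr6:128362967-128376146), the transcription factor, had 2545, 3272, 3428 and 3708 in ATRXfl_G34R and 934, 3691, 4551 and 3677 in ATRXfl_WT. It had 1402, 2278 and 3947 in p53_G34R and 4192, 6519, 629 and 3833 in p53_WT. Foxm1 was lowest in p53_WT 3 and ATRXfl_WT 1, the same tumours as most mitotic genes, and was not low in ATRXfl_WT 2. Mybl2 ranged from 120 to 933 over the 15 tumours, and 0.05% of its variance on the log2 scale lay between the 4 groups, the least of the 43 genes.

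The likeness among the genes was quantified as Pearson's r of log2 values over the 15 libraries, given here as a description because all genes share the same libraries. Median r was 0.85 over the 153 pairs of S phase genes, 0.94 over the 253 pairs of mitotic genes and 0.77 over the 414 mixed pairs. After centring on the 4 group means it was 0.85, 0.95 and 0.80, and without p53_WT 3 and ATRXfl_G34R 3 (13 libraries) it was 0.84, 0.93 and 0.73. With the mean of the other members, r was 0.98 for Ttk, Top2a and the S phase gene Rrm1, among others. It was lowest for Ccne1 at 0.13, followed by Rrm2 at 0.75. Values of r were thus higher among the mitotic genes than among the S phase genes, and Foxm1 had r of 0.90 with the mitotic mean against 0.65 with the S phase mean. Outside the list, the genes most like the mean of the 43 were Melk, Kif15, Cenpn, Kif4 and Knstrn, with r from 0.973 to 0.976 over the 15 libraries.

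Although tightly linked, the S phase and mitotic sets separated in single tumours. Each set's level was taken as the mean of its genes' centred log2 values. In p53_G34R 2 all 18 S phase genes were above their own mean (by 0.05 to 0.82 on the log2 scale) and all 23 mitotic genes below it (from -0.92 to -0.16), giving an S phase level of 0.42 and a mitosis level of -0.53. Set against p53_G34R 3, which shares its title code and had nearly the same S phase level (0.41), p53_G34R 2 was higher in 8 of 18 S phase genes and in 0 of 23 mitotic genes.

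ATRXfl_WT 2 showed the opposite imbalance, with an S phase level of -1.19, the lowest of all 15, and a mitosis level of -0.50. The difference (S phase minus mitosis) was 0.96 in p53_G34R 2 and -0.69 in ATRXfl_WT 2. In ATRXfl_WT 1 and p53_WT 3, the tumours lowest for mitosis (-1.59 and -1.47), S phase genes were less far below their mean (-0.96 and -0.95). In p53_WT 2 the levels were 1.24 and 1.49, the highest for both sets. These tumours were singled out after their values were seen.

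**Figure D3:**
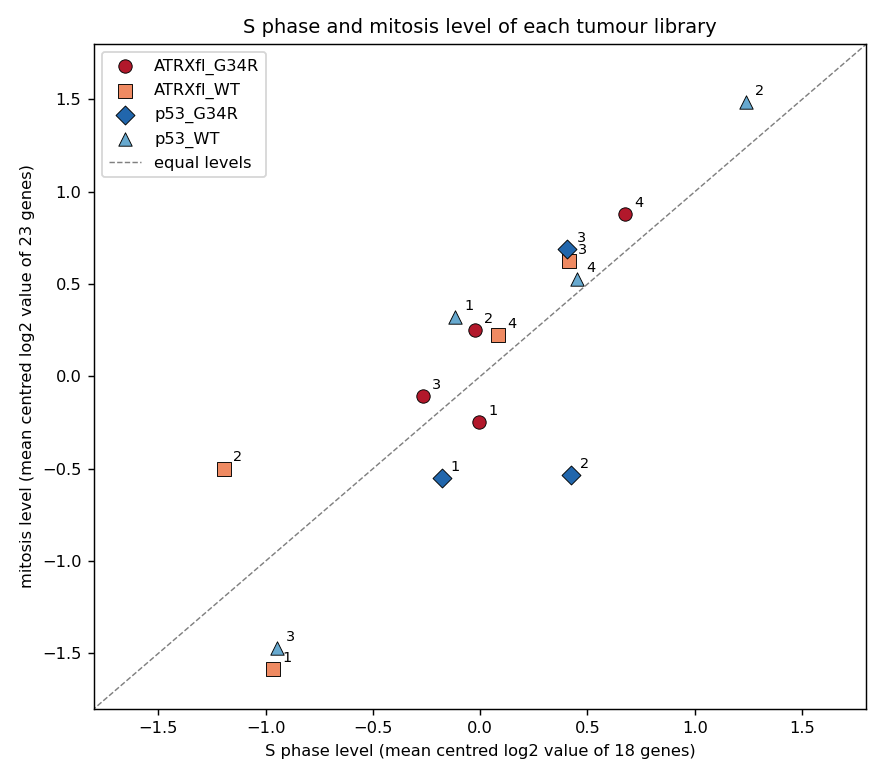
S phase level (horizontal) against mitosis level (vertical) of each tumour library, each the mean over the set's genes of log2(normalized read count + 1) minus the gene's mean over 15 libraries. Numbers are library numbers within a group and the dashed line marks equal levels; p53_G34R 2 lies farthest below the line, and ATRXfl_WT 2 farthest above it.

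Most of this spread lay within groups. The median share of log2 variance lying between the 4 groups was 16.1% for the S phase genes and 8.20% for the mitotic genes, against 16.0% for all 17776 genes tested. The highest share was 32.2% for Pcna, followed by 27.7% for Gins2 and 24.8% for Mcm3. The median SD over the 15 libraries was 0.72 for S phase genes and 0.84 for mitotic genes, against 0.59 for all genes tested.

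In all, 8 contrasts follow from the design, and groups are shared among them, so they are not independent of each other. In none of the 8 did any of the 43 genes pass an adjusted p of 0.05 in limma, edgeR's quasi-likelihood test or DESeq2, nor in the 5 two-group comparisons of the authors' deposited tables. At an unadjusted p of 0.05 the count was also 0 of 43 with limma, edgeR and DESeq2 in all 8 contrasts, and 0 in the authors' deposited tables. In the 7 contrasts between 2 sides, the ranges of the sides overlapped for all 43 genes. Differences are in log2(value + 1), the first-named group minus the second. Over all genes tested the median difference lay between -0.01 and 0.00 in each contrast. Because the members varied together (median r of 0.85 among S phase and 0.94 among mitotic genes), they are not independent observations. A count of members above 0 can thus rest on 1 or 2 libraries and does not measure how sure a shift is. Each contrast is given with some of the 8 cell type marker lists beside it, not with all that differed. Of the genes in these lists, 0 passed the adjusted test in limma or edgeR. Their part in the members' differences was not tested.

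The first question was whether the mutant histone shifts these genes where Atrx is floxed. Between ATRXfl_G34R and ATRXfl_WT, the median difference was 0.54 for the S phase genes (17 of 18 above 0) and 0.52 for the mitotic genes (23 of 23 above 0), against 49.9% of all 17521 genes tested. The smallest p was that of Mcm2, a helicase subunit, with means of 3312 ± 841 and 2202 ± 1163 (SD, n = 4 and 4), a difference of 0.72 (SE 0.37) and an adjusted p of 0.9997 in limma. Top2a had 0.78 (SE 0.53), Mki67 0.58 (SE 0.50) and Cdc6 0.997, the widest of the 43. limma called 0 of 43 members, against 0% of all genes (1.61% above and 1.18% below at an unadjusted p of 0.05), and DESeq2 called 0.182% of all genes. Groups that did not overlap made up 0.959% of genes in the upward and 1.2% in the downward direction. As single libraries were left out, the S phase median ran from 0.25 (without ATRXfl_WT 2) to 0.79 (without ATRXfl_WT 3) and the mitosis median from 0.04 (without ATRXfl_WT 1) to 0.83 (without ATRXfl_WT 3). Neuron markers differed more than the members: 12 of 12 were above 0 with a median of 2.32, 7 reached an unadjusted p of 0.05 in limma, 3 did not overlap, and DESeq2 called 4. Their summed count was 4043 to 21099 in ATRXfl_G34R and 1443 to 3513 in ATRXfl_WT. Erythroid markers (6 of 6 above 0) had a median of 1.22, lymphocyte markers (7 of 8) 1.08 and mature oligodendrocyte markers (10 of 10) 0.64.

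The same histone contrast in tumours with intact Atrx had the opposite sign for mitosis. Between p53_G34R and p53_WT, the median was 0.07 for the S phase genes (11 of 18 above 0) and -0.32 for the mitotic genes (0 of 23 above 0), against 50% of all 17873 genes tested. Plk1 had the smallest p, with 1152 ± 507 against 2025 ± 1547 (SD, n = 3 and 4), a difference of -0.56 (SE 0.64) and an adjusted p of 0.99999 in limma. limma called 0 members and 0% of all genes (0.761% above and 0.705% below unadjusted), while DESeq2 called 0.0578%. Non-overlapping genes made up 1.23% and 1.38%. Single libraries set both signs: without p53_WT 3 the medians were -0.38 and -0.92, and without p53_WT 2 they were 0.41 and 0.11. Neuron markers had a median of -1.53 (2 of 12 above 0), with sums of 2946 to 5796 in p53_G34R and 1065 to 260903 in p53_WT. Erythroid markers had -1.38 (0 of 6), mature oligodendrocyte markers -0.97 (3 of 10), astrocyte markers -0.78 (2 of 8) and oligodendrocyte progenitor markers 0.73 (8 of 8).

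Whether these histone differences depend on Atrx was tested as an interaction over all 15 libraries. The median interaction was 0.46 for S phase genes (17 of 18 above 0) and 0.84 for mitotic genes (23 of 23 above 0), against 49% of all genes. The smallest p was that of Ccnb2, with 1.20 (SE 0.85) and an adjusted p of 0.9996 in limma. limma called 0 members and 0% of all 17776 genes (1.17% above and 0.883% below unadjusted), and DESeq2 called 0.059%. The median SE of the members was 0.82, and the medians ran from 0.11 to 0.90 for S phase and 0.44 to 1.38 for mitosis as single libraries were left out, with both ends set by p53_WT 2 and p53_WT 3. The median interaction was 4.30 for neuron markers (12 of 12 above 0), 2.7 for erythroid markers (6 of 6) and 1.88 for mature oligodendrocyte markers (8 of 10), with DESeq2 calling 1 neuron and 1 mature oligodendrocyte marker. It was 0.998 for astrocyte markers (8 of 8), -0.78 for oligodendrocyte progenitor markers (1 of 8) and -0.55 for endothelial markers (0 of 7).

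The next question was whether floxed Atrx shifts the genes under each histone. Under H3.3G34R, ATRXfl_G34R against p53_G34R, the median was -0.21 for S phase genes (3 of 18 above 0) and 0.32 for mitotic genes (23 of 23 above 0), against 50% of all 17459 genes. Foxm1 had the smallest p: 3236 ± 487 against 2551 ± 1306 (SD, n = 4 and 3), a difference of 0.46 (SE 0.34) and an adjusted p of 0.9999 in limma. Without p53_G34R 1 that difference was 0.09. Pcna (-0.08, SE 0.26) and Mki67 (0.54, SE 0.44) illustrate the split of both sets. limma called 0 members against 0.0229% of all genes (2.12% above and 1.26% below unadjusted), DESeq2 called 0.538%, and 2.34% and 2.3% of genes did not overlap. The mitosis median ran from 0.08 (without ATRXfl_G34R 4) to 0.65 (without p53_G34R 3), and the S phase median from -0.37 (without ATRXfl_G34R 4) to -0.06 (without ATRXfl_G34R 3). Erythroid markers had a median of 3.55 (6 of 6 above 0, 4 at an unadjusted p of 0.05 in limma), with sums of 17017 to 323265 in ATRXfl_G34R and 534 to 32889 in p53_G34R; DESeq2 called 1 erythroid and 1 mature oligodendrocyte marker. Mature oligodendrocyte markers had 1.49 (10 of 10), neuron markers 1.34 (12 of 12) and astrocyte markers 0.76 (8 of 8).

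Under wild-type H3.3, ATRXfl_WT against p53_WT, the median was -0.63 for S phase genes (0 of 18 above 0) and -0.52 for mitotic genes (1 of 23 above 0), against 49.5% of all 17893 genes. Pcna had the smallest p, with 1189 ± 487 against 2135 ± 1023 (SD, n = 4 and 4), a difference of -0.83 (SE 0.41) and an adjusted p of 0.975 in limma. The lowest adjusted p of the 43 genes in the authors' deposited table for this comparison was 0.755. limma called 0 members against 0.0335% of all genes (2.07% above and 1.69% below unadjusted), edgeR 0 against 0.0112%, DESeq2 called 0.352%, and 1.39% and 1.26% of genes did not overlap. Both ends were set by p53_WT: without p53_WT 2 the medians were -0.25 and -0.07, and without p53_WT 3, which is rich in neuron and astrocyte markers, they were -1.03 and -1.08. Neuron markers had a median of -3.0 (0 of 12 above 0), erythroid markers 0.81 (5 of 6) and endothelial markers 0.75 (7 of 7).

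**Figure D4:**
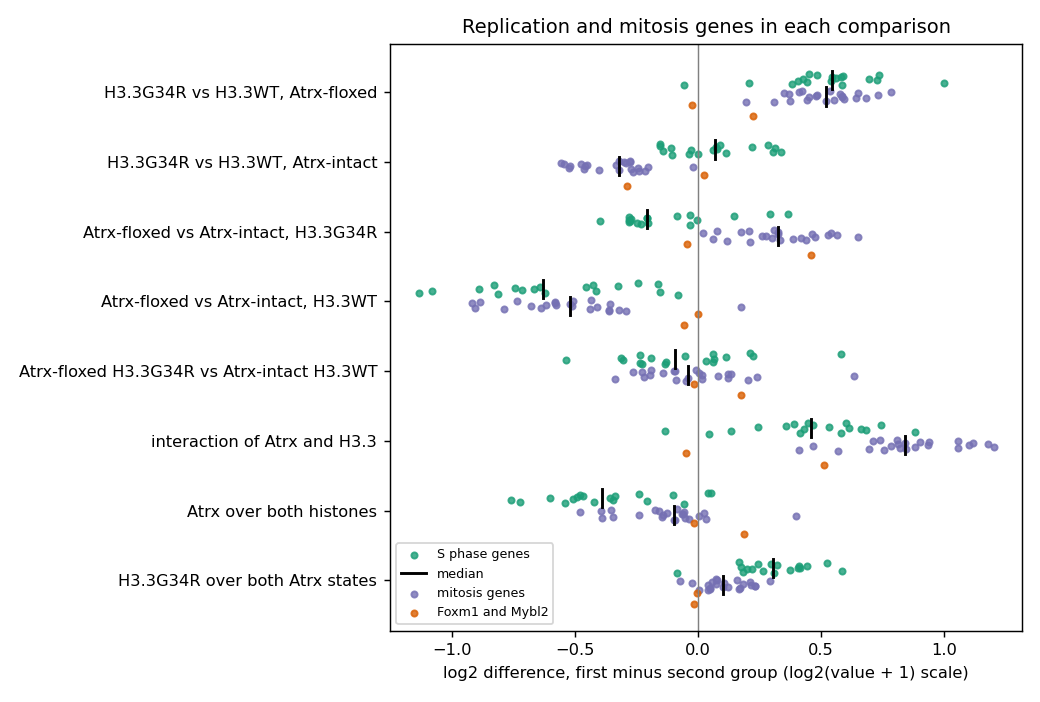
Difference of each gene in each of the 8 contrasts, in log2(value + 1), with S phase genes, mitotic genes and the transcription factors on separate lines and a black bar at the median of each of the first 2 sets. Mitotic genes lie above 0 in the Atrx-floxed histone contrast and below 0 in the Atrx-intact one, and no single gene passed the test in any contrast.

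With both changes against neither, ATRXfl_G34R against p53_WT, the medians were -0.09 for S phase (8 of 18 above 0) and -0.04 for mitosis (10 of 23 above 0), against 49.2% of 17659 genes. Cdc25c had the smallest p, with 599 ± 270 against 419 ± 211 (SD, n = 4 and 4), 0.63 (SE 0.51) and an adjusted p of 0.999 in limma. Mki67 had a difference of 0.00 (SE 0.62). limma called 0 members against 0.0227% of all genes (2.72% above and 1.65% below unadjusted), edgeR 0 against 0.0113%, DESeq2 called 0.38%, and 1.57% and 1.38% of genes did not overlap. Without p53_WT 3 the medians were -0.45 and -0.64, and without p53_WT 2 they were 0.26 and 0.43. Erythroid markers had a median of 2.05 (5 of 6 above 0), lymphocyte markers 1.23 (6 of 7) and oligodendrocyte progenitor markers 0.60 (8 of 8).

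Pooling both histones, the 8 floxed tumours against the 7 intact ones gave a median of -0.39 for S phase genes (2 of 18 above 0) and -0.10 for mitotic genes (4 of 23 above 0), against 49.7% of all 17776 genes. Gins2 had the smallest p of the 43 genes in any contrast, with 330 ± 185 against 527 ± 276 (SD, n = 8 and 7), -0.76 (SE 0.38) and an adjusted p of 0.914 in limma. limma called 0 members against 0.107% of all genes (3.22% above and 2.26% below unadjusted), edgeR 0 against 0.0731%, DESeq2 called 0.496%, and 0.0731% and 0.0619% of genes did not overlap. The S phase median ran from -0.59 (without p53_WT 3) to -0.21 (without p53_WT 2), and the mitosis median from -0.37 to 0.15 without the same libraries. Erythroid markers had a median of 2.12 (6 of 6 above 0), neuron markers -0.65 (0 of 12) and endothelial markers 0.53 (7 of 7).

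Pooling both Atrx states, the 7 H3.3G34R tumours against the 8 H3.3WT tumours gave 0.30 for S phase genes (17 of 18 above 0) and 0.10 for mitotic genes (21 of 23 above 0), against 49.2% of all genes. Mcm5, a helicase subunit, had the smallest p, with 3174 ± 1055 against 2542 ± 1218 (SD, n = 7 and 8), 0.44 (SE 0.31) and an adjusted p of 0.999 in limma. limma called 0 members and 0% of all genes (1.13% above and 1.24% below unadjusted), DESeq2 called 0.0198%, and 0% and 0.0113% of genes did not overlap. The S phase median ran from 0.15 (without ATRXfl_WT 2) to 0.46 (without p53_WT 2), and the mitosis median from -0.15 (without ATRXfl_WT 1) to 0.30 (without p53_WT 2). Lymphocyte markers had a median of 0.83 (6 of 8 above 0) and neuron markers 0.43 (8 of 12).

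Further genes of the same pathways were then read. Of 44 other replication genes, 64 other mitotic genes and 17 cell cycle brakes, all were tested and 0 passed an adjusted p of 0.05 in any of the 8 contrasts with limma, edgeR or DESeq2. With limma, between 0 and 2 genes of a list reached an unadjusted p of 0.05 in a contrast. Between ATRXfl_G34R and ATRXfl_WT their medians were 0.28 for replication and 0.52 for mitosis (members 0.54 and 0.52), and between ATRXfl_WT and p53_WT they were -0.47 and -0.49 (members -0.63 and -0.52). The sign differed from that of the members in 2 cases near 0: replication between p53_G34R and p53_WT (-0.03, members 0.07), and mitosis between ATRXfl_G34R and p53_WT (0.01, members -0.04). The brakes had a median of 0.01 between ATRXfl_G34R and ATRXfl_WT and of -0.07 between ATRXfl_WT and p53_WT.

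Pole2, a subunit of DNA polymerase epsilon, had the smallest p of the other replication genes, in the pooled histone contrast (140 ± 31.5 against 91.4 ± 51.2, SD, n = 7 and 8, a difference of 0.79, limma adjusted p = 0.999). Wee1, the kinase that restrains Cdk1, had it among the other mitotic genes, under wild-type H3.3 (576 ± 135 in ATRXfl_WT against 1036 ± 373 in p53_WT, SD, n = 4 and 4, -0.82, limma adjusted p = 0.975). Cdkn1a, the p21 inhibitor of cyclin-dependent kinases and a textbook p53 target, had it among the brakes, in the same contrast. Its normalized counts were 5202, 6591, 1906 and 2088 in ATRXfl_WT and 412, 1009, 2328 and 2354 in p53_WT. ATRXfl_WT 1 and 2, with S phase levels of -0.96 and -1.19, held the 2 highest values of both groups. The other 2 ATRXfl_WT tumours lay within the range of p53_WT. In p53_WT 3, with a similar S phase level of -0.95, the count was 2328. Levels as high were found in p53_G34R 1 (6754) and in ATRXfl_G34R 4 (6259), the latter high for the members too. The difference was 1.47 (SE 0.63, limma adjusted p = 0.975). E2f1, which encodes an E2F activator of S phase genes, had -0.62 (SE 0.29) for floxed against intact Atrx over both histones, and Cenpm, a centromere protein, had 1.37 (SE 0.61) between ATRXfl_G34R and ATRXfl_WT (limma adjusted p of 0.913 and 0.9997).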

How the data were processed

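RNA of 15 tumours was sequenced as TruSeq mRNA libraries, per the labels' protocols. Reads were handled with STAR 2.7, HTSeq and DESeq2 on mm10, per the submitters' processing notes; no source used here names the strand setting or the annotation. The authors deposited 5 tables, 1 per comparison of 2 groups, each with a normalized count signal per library (reads divided by a size factor), log2 fold changes and their errors, Wald scores and p-values. Divided by what 1 read is worth in its library, every deposited signal value came out whole (100% within 0.01 reads), so whole reads were recovered for all 15 libraries and rescaled together with DESeq2 size factors to give the values per library. Identifiers were matched to GENCODE vM21 for 54079 of 54232 genes (99.7%).

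Contrasts of 2 groups used the deposited values of that table, and the interaction and pooled contrasts all 15 libraries, as log2(value + 1) in limma 3.58.1 (R 4.3.3) over genes with a mean of at least 10, with Benjamini-Hochberg adjustment over all of them and a threshold of 0.05. edgeR 4.0.16 and DESeq2 1.42.0 on the recovered reads, other pseudocounts and filters, TMM scaling and left-out libraries were alternatives. The fits were also run on simulated data, but how often changes of a given size were recovered is not given here. The 21 pairs of libraries within groups differed by 89.8 to 663 chi-square units per degree of freedom, so no 2 were the same library. The members and lists were chosen with earlier results of these data known. Genes given with values in every library or by group are, for each role, the one with the highest mean and the one with the smallest p, any past the threshold, and the 3 of largest and the 3 of smallest SD; of the other lists up to 3 genes with the smallest p each, and the 5 other genes most like the members' mean. RPKM was computed from recovered reads and exon lengths.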

Additional observations from a re-analysis of the deposited data

Results flagged for a closer look

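Gaps within groups of 4 tumours were examined for some of the members only, in 78 combinations of gene or summary level and group. In 2 of these, both of single members, a tumour stood farther from its group than a gap test at 95% allows. Chance alone gives such a gap in about 1 of 20 groups. Ccne1, which encodes cyclin E1, had a normalized read count of 527.6 in ATRXfl_G34R 1, against 304.1 to 334.0 in the other 3 tumours of that group. Plk1, the Polo kinase, had 2034 in ATRXfl_G34R 4, against 1096 to 1240 in the others. These gaps made up 0.866 and 0.847 of the group's whole range. Mcm2 and Cdc45, which were not among the genes examined, also stood apart in ATRXfl_G34R 4. Mcm2 had 4625 there, against 2905 to 2994 in the other tumours of the group. Cdc45 had 803, against 480 to 497. In ATRXfl_G34R 4, 41 members were above their own mean, so its high Plk1 value was shared with other members.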

How the results depend on the processing

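No member passed an adjusted p of 0.05 under any alternative run: no filter, pseudocounts of 0.5 and 5, TMM scaling, edgeR, DESeq2, all groups in 1 fit, libraries with a shared title code summed, the libraries rich in cortex transcripts left out, and each library left out in turn. Counts over all genes moved. DESeq2 called 34 genes in the Atrx-floxed and 12 in the Atrx-intact histone contrast (limma 0 and 0), 113 and 74 in the Atrx contrasts under H3.3G34R and H3.3WT (limma 4 and 6), 77 for both changes against neither (limma 4), 15 for the interaction (limma 0), 104 for pooled Atrx (limma 19) and 7 for the pooled histone (limma 0). edgeR called 0, 2 and 2 genes for Atrx under H3.3G34R, Atrx under H3.3WT and both changes against neither. In those contrasts, summing libraries with a shared code left 0, 2 and 2. With no filter 12 genes were called for Atrx under H3.3G34R, and 0 without the library rich in cortex transcripts. A pseudocount of 0.5 left 2 genes for both changes against neither. With each library left out, limma called 0 to 5 and 2 to 8 genes for Atrx under H3.3G34R and H3.3WT, 2 to 8 for both changes against neither and 16 to 27 for pooled Atrx.

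The Foxm1 difference under H3.3G34R (0.46) was 0.09 without p53_G34R 1 and 0.84 without p53_G34R 3. The cause was not tested. No paired analysis was possible because the labels give the groups no shared replicate numbers. Groups held 3 or 4 tumours, and the lowest count behind any member was 35 reads.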
